A study of Homo sapiens with 6 samples.

Results

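Open chromatin deep inside long genes was described in wild-type hTERT-RPE1 cells, a human retinal pigment epithelial line immortalised with telomerase. A deep gene-body region is here a stretch of open chromatin that lay wholly inside the interval of a protein-coding gene and more than 50 kb from both ends of every protein-coding gene, on chromosomes 1 to 22. It had to hold at least 1 peak of each of the deposited lists, R1 and R2, whose overlapping peaks were joined. The rule used position and presence in both lists, not the strength of a peak. It found 18556 regions, which is 15.5% of 119583 shared autosomal regions.

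ATAC-seq cuts accessible DNA of isolated nuclei with the transposase Tn5, which leaves sequencing adapters at the cut. The 6 libraries all came from the same untreated wild-type line, and their titles place 3 in set R1 and 3 in set R2. What separates the sets is not given in the sources used here, nor is whether the libraries came from separate cultures. Each set was represented by 1 merged peak list, with 143492 peaks in R1 and 134940 in R2, so no spread between replicates could be computed and no difference below was tested. Intervals are exact binomial (Clopper-Pearson) 95% intervals and cover counting error only. Coordinates are on hg38, the build of the submitters' processing notes. Gene intervals came from RefSeq on GRCh38.p14.

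Long mammalian genes consist mostly of introns, and introns hold many of the enhancers of a cell type, where transcription factors bind and displace nucleosomes. Enhancers in an intron may act on the host gene or on another gene. Long genes also carry internal promoters, from which shorter transcripts start. ATAC-seq marks both kinds of element and does not tell them apart. In epithelial and mesenchymal cells such sites often hold the letters TGANTCA, to which AP-1 (dimers of FOS and JUN proteins) binds, while promoters of widely used genes are rich in GC and CpG and often hold CCGGAAGT, the letters bound by ETS proteins.

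The cells were checked by gene ends, meaning a peak within 1000 bp of an end of the gene's interval in both lists, called an open end here. Of 13 markers of pigment epithelium 9 had such a region, among them MITF, OTX2, PMEL, RLBP1 and BEST1. RPE65 and LRAT, enzymes of the visual cycle, TYR, the enzyme that starts melanin synthesis, and TTR had none. Of 9 markers of other cell types reported here 4 had one (MYOD1, RBFOX3, GFAP and EPCAM). The blood cell gene PTPRC, the endothelial genes PECAM1 and CDH5, the liver gene ALB and the epithelial cadherin gene CDH1 had none. Over all autosomal coding genes 14307 of 19122 (74.8%) had an open end, so the marker counts do not identify the cells. An open gene end does not show expression. Deep regions lay in the markers MITF (14), MERTK (2) and RBFOX3 (14), while TYR and PTPRC held 0 in their short deep stretches of 0.0179 Mb and 0.0188 Mb.

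Listed transcript starts inside deep regions came first, since they separate known internal promoters from the rest. The RefSeq start table holds several starts per gene, and it does not cover chromosome 8, where 866 of the regions (4.67%) lay. Of all deep regions, 343 (1.85%) held the start of a protein-coding transcript, from 277 genes, and 118 (0.636%) held a noncoding start only. A further 17931 (96.6%) lay more than 1000 bp from every listed start, with those on chromosome 8 counted among them. Of the 15836 shared regions within 1000 bp of a coding gene end, 8676 (54.8%) held a protein-coding start. The shares over all shared regions were not computed.

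The same question can be put to the starts themselves: 429 of 999 protein-coding starts at deep positions fell in a shared region, 42.9% (interval 39.85 to 46.08). For noncoding starts at deep positions it was 166 of 978, 17.0% (interval 14.67 to 19.48), and for coding starts within 1000 bp of an interval end it was 11386 of 16359, 69.6% (interval 68.89 to 70.31).

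Sequences are shown for 6 of these starts, because they show how different the internal promoters were in base composition. They were chosen after their values were seen. CLASP2, IGSF11, RAB27B, TNRC6A and OSBP2 held the listed starts with the best within-list percentile of fold, and PRKG2-AS1 was the best noncoding start with TGANTCA. Each window runs from 250 bases before to 50 bases after the listed start, 5′ to 3′ on the strand of the gene. TGANTCA is in capitals wherever it occurs, the sequences are RefSeq's, and the match was of letters only.
CLASP2, chr3:33645425-33645724, - strand: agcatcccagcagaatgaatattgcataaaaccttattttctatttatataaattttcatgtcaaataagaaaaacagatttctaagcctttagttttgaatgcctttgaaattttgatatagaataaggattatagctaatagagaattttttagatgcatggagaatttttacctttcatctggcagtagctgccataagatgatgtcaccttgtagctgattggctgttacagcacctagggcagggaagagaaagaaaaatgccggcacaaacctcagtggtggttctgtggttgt
IGSF11, chr3:119034797-119035096, - strand: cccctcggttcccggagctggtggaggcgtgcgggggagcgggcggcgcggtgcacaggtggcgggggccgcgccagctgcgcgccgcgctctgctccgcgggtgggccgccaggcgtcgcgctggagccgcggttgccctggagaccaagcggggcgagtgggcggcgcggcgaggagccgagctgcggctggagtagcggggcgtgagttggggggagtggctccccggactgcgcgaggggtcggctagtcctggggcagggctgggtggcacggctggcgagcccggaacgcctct
TNRC6A, chr16:24729401-24729700, + strand: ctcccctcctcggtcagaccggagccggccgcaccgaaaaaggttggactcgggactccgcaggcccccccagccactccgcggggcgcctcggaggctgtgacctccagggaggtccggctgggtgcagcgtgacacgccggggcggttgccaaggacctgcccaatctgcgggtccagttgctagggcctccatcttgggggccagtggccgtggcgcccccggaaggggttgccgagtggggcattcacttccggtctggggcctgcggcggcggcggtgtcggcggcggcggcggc
RAB27B, chr18:54828227-54828526, + strand: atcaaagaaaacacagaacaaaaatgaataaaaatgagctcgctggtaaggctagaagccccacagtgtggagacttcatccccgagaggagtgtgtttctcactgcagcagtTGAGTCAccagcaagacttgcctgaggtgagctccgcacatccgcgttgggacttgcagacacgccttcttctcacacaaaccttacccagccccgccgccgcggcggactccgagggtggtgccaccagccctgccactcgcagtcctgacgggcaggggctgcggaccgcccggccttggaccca
OSBP2, chr22:30764003-30764302, + strand: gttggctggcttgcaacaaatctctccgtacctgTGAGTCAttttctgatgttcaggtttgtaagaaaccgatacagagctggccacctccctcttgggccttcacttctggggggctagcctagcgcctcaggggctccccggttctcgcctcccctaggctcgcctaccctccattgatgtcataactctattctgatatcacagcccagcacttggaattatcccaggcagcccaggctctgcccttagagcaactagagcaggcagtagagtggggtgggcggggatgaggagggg
PRKG2-AS1, chr4:81164690-81164989, + strand: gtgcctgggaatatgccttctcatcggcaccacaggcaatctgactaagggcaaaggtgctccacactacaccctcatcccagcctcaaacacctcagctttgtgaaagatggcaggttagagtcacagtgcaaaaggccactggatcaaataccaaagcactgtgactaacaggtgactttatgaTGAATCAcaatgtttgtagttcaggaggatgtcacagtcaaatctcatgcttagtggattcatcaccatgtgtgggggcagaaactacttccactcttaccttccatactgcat

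CLASP2, which encodes a protein that stabilises microtubule ends, had an internal start in AT-rich sequence, with 35.3% GC and 1 CpG in 300 bases. Its region was 885 bp wide, with a fold enrichment over local background, the authors' value for a peak, of 15.7 in R1 and 14.0 in R2. The internal start of IGSF11, a gene of an immunoglobulin-domain adhesion protein, lay at the other end of the range, with 78.3% GC and 41 CpGs, and its region had folds of 13.6 and 15.7. TNRC6A, which encodes a scaffold of microRNA silencing, had 73.7% GC, 31 CpGs and folds of 14.3 and 13.4. None of these 3 windows held TGANTCA, and all 3 genes also had an open gene end.

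RAB27B encodes a small GTPase of vesicle secretion. Its gene had no open interval end in both lists, and its internal start held 1 TGAGTCA, 59.0% GC and folds of 14.0 and 13.9, from 467 and 460 fragments over the summit. At the internal start of OSBP2, an oxysterol-binding protein gene, folds were 13.4 and 13.7 at 56.7% GC, also with 1 TGAGTCA. PRKG2-AS1 is a noncoding RNA whose start lay inside PRKG2, a gene of a cyclic GMP-dependent kinase. That window had 1 TGAATCA, a single CpG in 47.0% GC, and folds of 12.6 and 11. That all 6 regions were high in both lists follows from how they were chosen. Their base composition spanned from AT-rich to CpG island-like.

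Over all such windows, GC content and letters were set beside those of other starts. The 382 windows of coding starts in deep regions had a median GC of 57.0% and a median ratio of observed to expected CpG of 0.575, and the 137 windows of noncoding starts 50.3% and 0.296. The 10908 windows of coding starts in gene-end regions had 66.0% and 0.847, and the 33558 autosomal windows in all had 58.7% and 0.578. The 555 coding starts at deep positions outside every region were poorer, with 46.3% and 0.297.

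TGANTCA, which reads the same on both strands, occurred in 53 of the 382 coding windows, 13.9% (interval 10.6 to 17.8), and in 38 of the 137 noncoding ones, 27.7% (interval 20.4 to 36.0). It occurred in 4.41% of gene-end windows (interval 4.03 to 4.81), in 9.37% of coding starts at deep positions outside every region (interval 7.08 to 12.1) and in 7.68% of all windows. CCGGAAGT, searched on both strands, was rarer than at gene ends, with 6 of 382 (1.57%, interval 0.579 to 3.39) and 0 of 137 (interval up to 2.66%), against 9.11% of gene-end windows (interval 8.58 to 9.67) and 4.16% of all windows. At coding starts at deep positions outside every region it occurred in 0.18% (interval 0.00456 to 1.0), below the coding starts inside deep regions. GGAATG or its complement CATTCC, the letters bound by TEAD factors of Hippo signalling, occurred in 16.8% of coding windows in deep regions, 16.8% of coding windows at deep positions outside every region, 10.3% at gene ends and 14.1% of all windows. These windows differ in GC content, which also sets how often such letters occur, and its part in the shares was not tested. They cover only the starts, so they say nothing about the regions without a listed start. Windows of neighbouring starts can also overlap and hold the same letters. The intervals treat windows as independent and may therefore be too narrow.

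Deep regions also held 16 complete microRNA hairpins of RefSeq. The mature sequences of the 3 whose regions had the best mean percentile are given, chosen after the values were seen, with the seed (bases 2 to 8) in capitals. No 2 of these seeds are the same.
hsa-miR-591, chr7:96219722-96219741, - strand: aGACCAUGgguucucauugu
hsa-miR-4295, chr10:112634180-112634197, + strand: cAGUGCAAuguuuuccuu
hsa-miR-583, chr5:96079153-96079173, + strand: cAAAGAGGaaggucccauuac

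The hairpin of miR-591 lay in SLC25A13, a gene of a mitochondrial aspartate and glutamate carrier, in a region whose fold was 9.18 in R1 and 8.98 in R2. That of miR-4295 lay in VTI1A, a gene of vesicle fusion, with 9.41 and 7.64, and that of miR-583 in CAST, which encodes the calpain inhibitor calpastatin, with 9.04 and 7.71. Open chromatin over a hairpin does not show that the microRNA is made.

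In size and strength, deep regions looked like other regions away from promoters. Their median width was 785 bp (quartiles 551 and 1060), with a range from 217 to 3942 bp, and their median fold was 5.77 in R1 and 5.50 in R2, with ranges of 1.44 to 20.7 and 1.45 to 20.01. Gene-end regions, which number 15836, were wider and higher, with a median of 1376 bp and folds of 6.65 and 6.70. The 37232 shallower gene-body regions, inside a coding gene but within 50 kb of a gene end, had 807 bp and folds of 5.24 and 5.0. The 21762 regions of gene deserts, outside every coding gene and more than 50 kb from every coding gene end, had 756 bp and folds of 6.05 and 5.69. The other 26197 regions, outside coding genes but within 50 kb of a gene end, came closest by these values, with 795 bp and folds of 5.59 and 5.34.

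Strength was also counted as the share of regions at or above the median fold of both lists (5.03 in R1, 5.11 in R2). This held for 52.6% of all shared regions, the background for this count, and for 9860 deep regions, 53.1% (interval 52.42 to 53.86). The deep share was thus near that of the whole set. It was 46.8% in shallower gene bodies, 50.7% among the regions near genes, 55.1% in deserts and 65.3% at gene ends.

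The fragments behind these folds were recovered from each peak's fold and −log10 p, which is an inference from the values. A deep region had a median of 71 fragments over its summit in R1 and 67 in R2, over a local background of 10 and 9.79. Gene-end regions had 241 and 257 fragments over 33.1 and 34.1, so their folds exceeded those of deep regions by far less than their fragments did. Desert regions had 70 and 65 fragments over 8.88 and 8.62, which by this measure was closest to the deep ones, and regions near genes had 85 and 79 over 12.4 and 11.9.

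**Figure D1:**
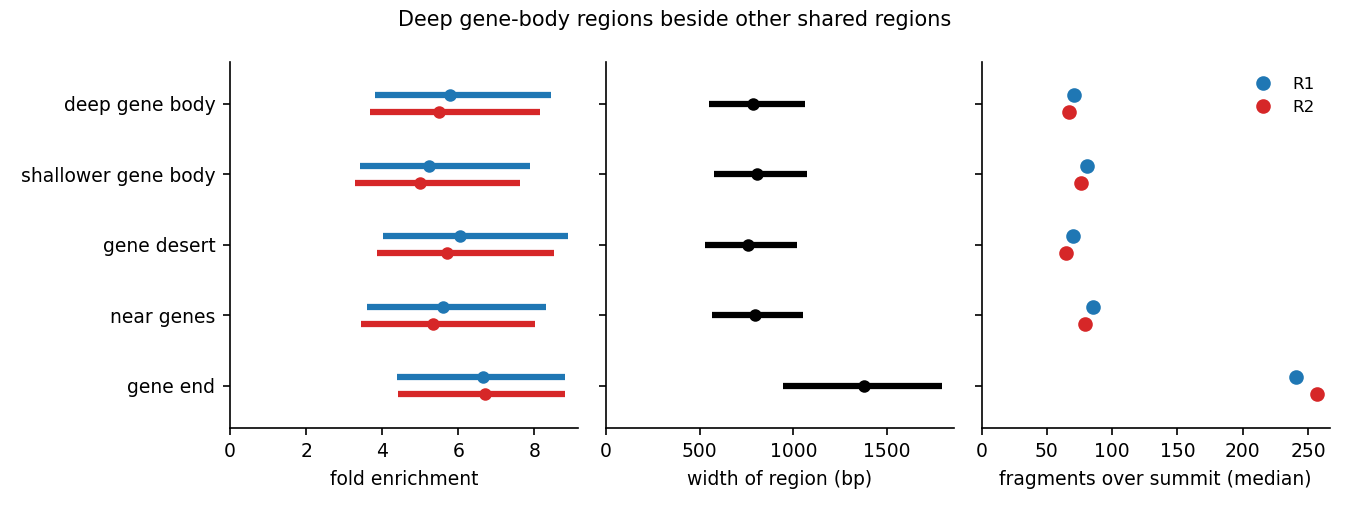
Fold enrichment (left, authors' values), width in bp (middle) and inferred fragments over the summit (right) for 5 classes of shared regions; points are medians, bars run between the quartiles, blue is R1 and red R2. The 4 classes away from gene ends lie close together, while gene-end regions stand apart by width (median 1376 bp) and by fragments (241 in R1, 257 in R2).

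The few deep regions with a listed coding start resembled gene ends more than other deep regions. Their median width was 1493 bp, their folds 6.65 and 6.66, and their fragments 201 in R1 and 209 in R2, and 71.4% (interval 66.33 to 76.15) were at or above both medians. Deep regions with a noncoding start only were in between by width, at 1052 bp, with folds of 7.04 and 7.06. The 17931 regions away from every listed start had 775 bp, folds of 5.73 and 5.46, and 70 and 66 fragments. Gene-end regions that held a coding start had 1586 bp, folds of 7.54 and 7.65, and 318 and 329 fragments.

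The lists agreed on deep peaks about as often as elsewhere. Of 21282 R1 peaks at deep positions 18721 overlapped an R2 peak, 88.0% (interval 87.52 to 88.40), against 87.1% of other autosomal R1 peaks. For R2 it was 18707 of 20331, 92.0% (interval 91.63 to 92.38), against 91.8%. The weakest 10% of each list by fold lost most: 44.9% of deep R1 peaks and 57.1% of deep R2 peaks in it were found in the other list, against 48.1% and 61.8% elsewhere. In the strongest 10%, 100% were found in both lists. The rule thus leaves out 4185 deep positions with a peak in 1 list only. Within-list percentiles of fold of the deep regions had a Spearman correlation of 0.955 between R1 and R2 across regions, as a description of lists from the same cells. In 609 regions (3.28%) the percentiles differed by more than 20 points.

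Deep regions were spread very unevenly over genes. A protein-coding gene must exceed 100 kb to have any deep sequence, and 3039 autosomal genes did, with 474.6 Mb of it in all. At least 1 deep region lay in 2236 of them, 73.6%, and 803 had none. The overall density was 39.1 regions per Mb of deep sequence, against 53.6 per Mb in shallower gene bodies, and deep regions covered 3.33% of deep sequence. Since 132 regions lay in more than 1 gene, there were 18688 pairs of a region and a gene, of which 46.2% fell in the 304 genes with the most. Those genes were picked by that same count, and their share of deep sequence was not computed. Deep sequence differed widely too, with a median of 73.9 kb per eligible gene and 1.13 Mb in KAZN. Among the 707 genes with at least 0.2 Mb of deep sequence the median density was 31.9 per Mb (quartiles 11 and 58.1), and 76 had none.

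KAZN held the most, with 82 regions in 1.13 Mb. It encodes kazrin, a protein of desmosomes and the cytoskeleton. Its median folds were 5.95 in R1 and 5.63 in R2, 3 regions held a listed coding start, and its interval had no gene-end region in both lists. KCNMA1, the gene of the large-conductance calcium-activated potassium channel, held 81 regions in 0.668 Mb, with lower median folds of 4.16 and 4.17. RAD51B, a homologous recombination gene, held 75 in 0.763 Mb with folds of 5.34 and 5.23. None of the 75 held a listed coding start, and only 1.85% of all deep regions did.

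Of the next genes by count, several encode proteins of adhesion and the cytoskeleton. CAST held 66 regions, LPP, which encodes a LIM protein of focal adhesions, 62, and DST, which encodes the cytoskeletal linker dystonin, 53. FRMD4A, a gene of a scaffold of epithelial polarity, held 58, NAV2, a gene of a cytoskeleton-associated protein, 57 and ANK3, which encodes the membrane adaptor ankyrin-G, 55. KALRN, a gene of a nucleotide exchange factor for small GTPases, and PDE1C, of a cyclic nucleotide phosphodiesterase, had 54 each. NCKAP5 held 60. TENM3 (61) and NRXN3 (56) encode adhesion proteins best known from neurons, and GPC6 (52) a cell-surface proteoglycan. Both lists had a peak at an end of 9 of these 15 genes and lacked one at 6 (KAZN, TENM3, FRMD4A, NAV2, NRXN3 and GPC6). An open end was found in 80.3% of all eligible genes and in 86.4% of the 242 with at least 20 deep regions.

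By density, the first genes with at least 0.2 Mb of deep sequence were EXT1, a heparan sulfate polymerase gene, with 161 regions per Mb, and ABLIM1, of an actin-binding LIM protein, with 157. FMNL2, which encodes a formin of actin assembly, had 154, PALLD, of the actin scaffold palladin, 151, and MAML2, a coactivator gene of Notch signalling, 146. DST followed with 134 and FRMD6, an upstream gene of Hippo signalling, with 132. NEDD4L, a ubiquitin ligase gene, had 132, PLCE1, a phospholipase gene, 131 and TRIO, an exchange factor gene of actin remodelling, 131. These densities were at least 4 times the overall 39.1 per Mb for EXT1 and ABLIM1. A high density did not go with high folds in every gene: in TRIO the median folds were 3.09 and 3.13 and 10 of 35 regions were at or above both medians, whereas in FRMD6 the folds were 7.04 and 6.45 and 18 of 31 were.

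**Figure D2:**
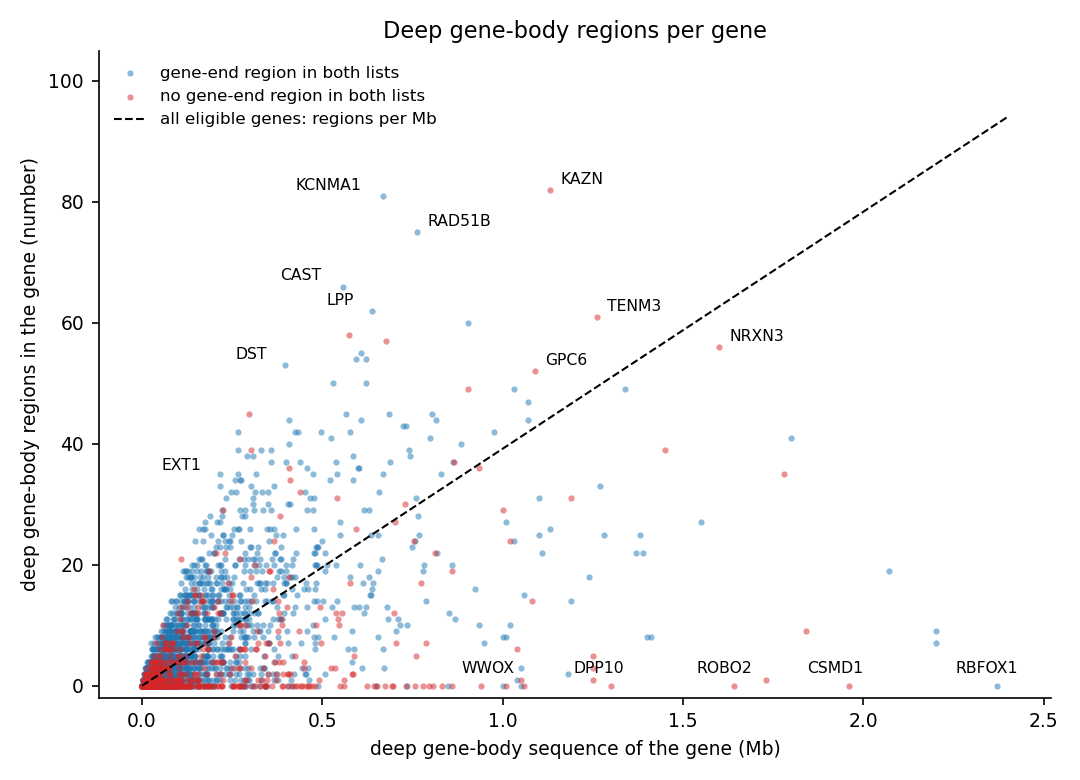
Number of deep gene-body regions (vertical axis) against the length of deep sequence in Mb (horizontal axis) for 3039 eligible genes; blue genes had an end open in both lists, red genes did not, and the dashed line is the overall density. KAZN (82) and KCNMA1 (81) lie well above the line, and a row of long genes, from WWOX to RBFOX1, lies at 0.

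Other very long genes held no deep region at all. RBFOX1, which encodes a neuronal splicing factor, had 0 in 2.37 Mb, and CSMD1, a gene of a complement-regulating membrane protein, 0 in 1.96 Mb. ROBO2, an axon guidance receptor gene, had 0 in 1.64 Mb, DPP10, a gene of a potassium channel partner, 0 in 1.30 Mb, and PTPRT, a receptor phosphatase gene, 0 in 1.06 Mb. SGCZ (1.05 Mb) and SGCD (0.94 Mb) encode sarcoglycans of muscle membranes, NRG3 (1.01 Mb) a neuregulin and CNTN4 (0.859 Mb) a contactin of neurons. WWOX, a tumour suppressor gene used by many cells, had 0 in 1.0 Mb. An open end was present in 3 of these 10 genes, RBFOX1, SGCZ and WWOX, and in RBFOX1 and WWOX it was the 5′ end. Of all 803 eligible genes without a deep region 66.6% had one. Peaks of 1 list only were also nearly missing from these 10 genes: RBFOX1 had 1 in R2, and the other 9 had 0 in each list.

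**Figure D3:**
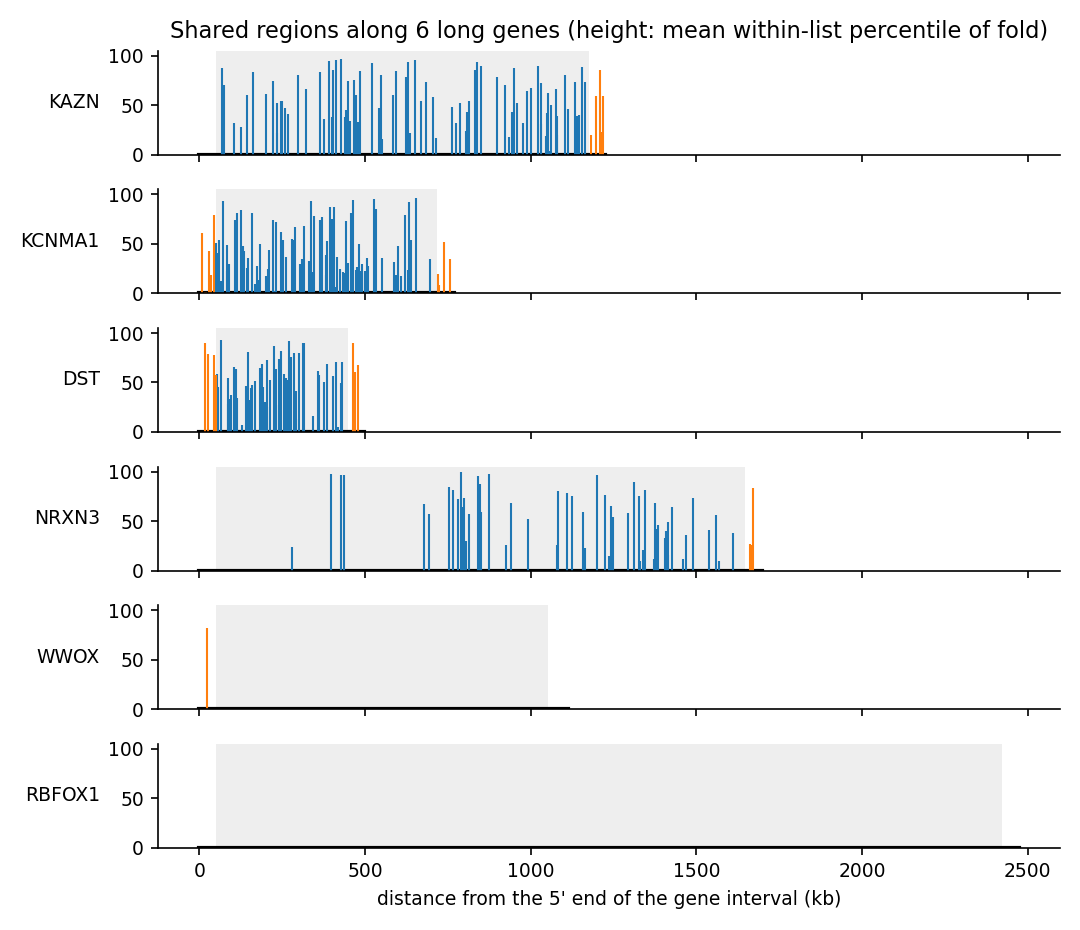
Shared regions along 6 genes by distance from the 5′ end of the gene interval in kb (horizontal axis), with height giving the mean of the R1 and R2 within-list percentiles of fold; grey marks deep sequence, blue deep regions and orange other shared regions inside the gene. DST and KCNMA1 carry regions along their whole deep stretch, the first region of NRXN3 lies 278 kb from its 5′ end, and WWOX and RBFOX1 have none in 1.0 and 2.37 Mb.

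Genes with an open end held a deep region in 78.1% of cases and those without in 55.3%, with no test. The background over all autosomal coding genes was 74.8% with an end open in both lists. Among the eligible genes, 1905 of the 2236 with a deep region had one, 85.2% (interval 83.66 to 86.64), against 535 of the 803 without, 66.6% (interval 63.24 to 69.88). The share was similar in genes with many: 209 of the 242 genes with at least 20 deep regions had an open end, 86.4% (interval 81.39 to 90.42). These 242 are part of the 2236. A longer deep stretch has more room for a region, so densities were compared as well. The 2440 eligible genes with an open end had 45.5 regions per Mb, and the 599 without 21.7 per Mb. Among genes with at least 0.2 Mb the median densities were 41.2 and 10.5.

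Interval ends miss promoters inside the gene, so listed starts were used too, in the 2498 eligible genes the start table gives a strand. In 1950 genes at least 1 listed start fell in a shared region, with 48.6 deep regions per Mb, and in 548 none did, with 18.3 per Mb. Median densities were 43.6 and 9.96 in genes with at least 0.2 Mb, and the first was 43.2 with start-holding regions left out. The 134 genes without an open interval end but with an open listed start had 47.1 per Mb. Their median density in genes with at least 0.2 Mb was 32.4, and 31.7 with start-holding regions left out. An open start that lies deep is itself a deep region, so part of the density over these 134 genes follows from how they were chosen. The 341 genes with neither had 12.1 per Mb and a median density of 4.88. RAB27B and KAZN are among those 134. In ZBTB20, which encodes a zinc-finger repressor and was picked out after its values were seen, 5 of 43 deep regions held a listed coding start, more than in any other eligible gene.

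The 11 lists of long genes described here were written from textbook knowledge, with earlier results of these data known. They are described by density beside the 39.2 per Mb over all eligible genes (pairs of a region and a gene). Genes of the actin cytoskeleton and cell-matrix adhesion had 90.3 per Mb, with a deep region in 47 of 49 eligible genes (95.9%, against 73.6% of all). Of these 49 genes 41 had a density above the overall one, against 1485 of all 3039 eligible genes. LPP, NAV2 and DST held the most, while LIMA1 and ACTN1 had none in very short deep stretches. Genes of TGF-beta, BMP and Hippo signalling had 77.1 per Mb and a region in 22 of 24. Here TEAD1, the gene of a DNA-binding partner of YAP and TAZ, held 26 regions at 153 per Mb, and WWTR1, the TAZ gene, 21 at 195 per Mb. Their deep sequence, 0.17 Mb in TEAD1 and 0.108 Mb in WWTR1, was below the 0.2 Mb asked of genes in the ranking by density. LTBP1, which encodes a protein that stores latent TGF-beta in the matrix, held 24 at 68.1 per Mb.

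Genes of kinases, phosphodiesterases and lipid signalling had 51.1 per Mb (73 of 75), among them PRKCA, a protein kinase C gene, with 40 regions. Trafficking, ubiquitin and chromatin genes used by most cells had 48.7 per Mb (58 of 63), with RAD51B ahead of ASAP1 (38) and CDKAL1 (36). Transcription factors had 45.2 per Mb (78 of 96), with 50 regions in FOXP1, 44 in HDAC9, a histone deacetylase gene kept in this list, and 43 in ZBTB20, and with 0 in 0.423 Mb of TSHZ2.

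The 4 lists below the overall density were those of synaptic, ion channel, fragile site and eye genes. Synaptic adhesion and axon guidance genes had 15.6 per Mb, with a region in 52 of 72. The list was mixed: TENM3, NRXN3 and ROBO1 (47 regions) were well above 0, and RBFOX1, CSMD1 and ROBO2 were at 0. Ion channel and neurotransmitter receptor genes had 25.8 per Mb (52 of 68), with KCNMA1 at 121 per Mb and KCNQ5 at 65.0, while the glutamate receptor gene GRM7 and the ryanodine receptor gene RYR2 had none in 0.780 and 0.692 Mb. Genes at common fragile sites, which break under replication stress, had 16.4 per Mb (26 of 30). LRP1B held 41 regions in 1.80 Mb, PARD3B 42 and PDE4D 39, against 8 in 1.40 Mb of FHIT, which was named after its value was seen.

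Cadherin, catenin and junction genes (43.4 per Mb, 37 of 44) and extracellular matrix genes (40.3 per Mb, 44 of 56) lay near the overall density. In the former FRMD4A, MAGI2 (49) and PARD3 (44) held the most and CDH11 and CDH9 none. In the latter ADAMTSL1 (49), SPOCK1 (42) and SLIT3 (37) did, against 0 in TNR and PXDNL. The list of eye and pigment epithelium genes had 27.4 per Mb over their summed deep sequence (21 of 26), of which EYS alone makes up 1.78 of 7.95 Mb. Gene by gene it was not low, with a median density of 38.9 per Mb against 37.7 over all eligible genes. Of its 26 eligible genes 13 lay above the overall density, near the background of 1485 of 3039. EYS, a gene of inherited retinal degeneration, held 35 regions without an open gene end, and OCA2, a gene of melanosome pH, held 0 in 0.280 Mb with one.

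**Figure D4:**
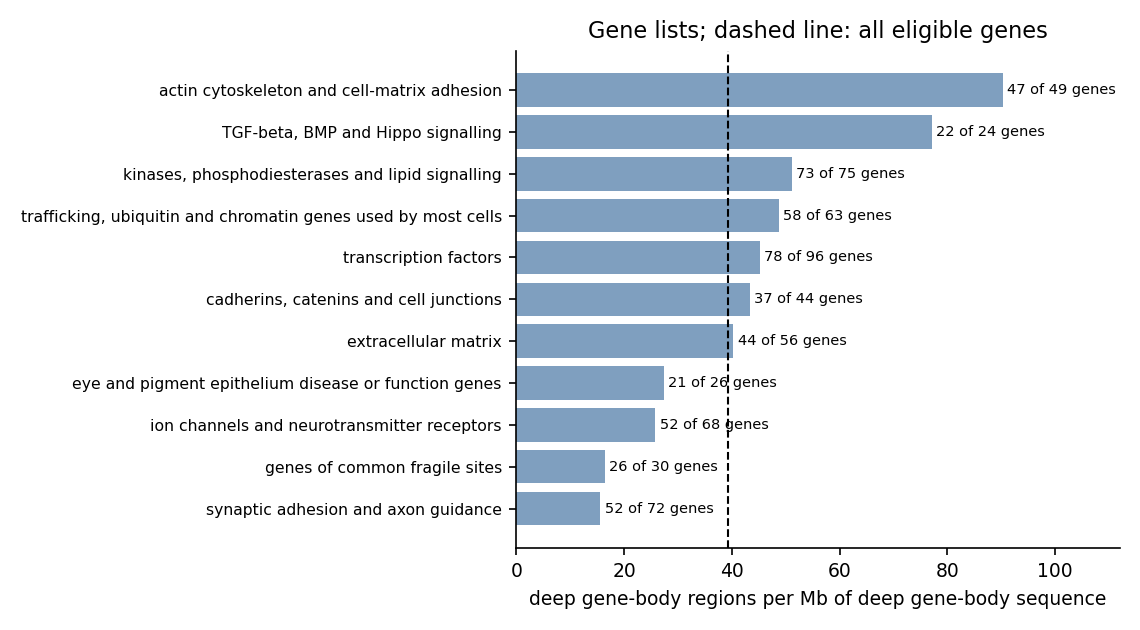
Deep gene-body regions per Mb of deep sequence (horizontal axis) in 11 lists of genes, with the number of eligible genes that held at least 1; the dashed line is the density over all eligible genes (39.2 per Mb). Densities run from 15.6 per Mb in synaptic adhesion and axon guidance genes to 90.3 per Mb in actin and adhesion genes.

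The lists differed in density much more than in strength. The median within-list percentile of fold ran from 50 in the actin and adhesion list to 58.2 in the fragile site list, against 55.9 over all eligible genes. The share of eligible genes with an open end ran from 55.6% in the synaptic list and 60.3% in the ion channel list to 95.2% in the trafficking list, against 80.3% over all. Open ends thus moved with density in part of the lists, and their part in the densities was not tested. The lists also differed in gene length. The 72 synaptic genes had 54.0 Mb of deep sequence and the 30 fragile site genes 33.0 Mb. The 49 actin and adhesion genes had 9.59 Mb, and the 24 TGF-beta, BMP and Hippo genes 2.28 Mb. Density was lower far from gene ends (below), and the part of gene length in the list densities was not tested either.

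Along the gene, deep regions were somewhat denser in the middle. With each of 2498 stranded genes divided into 5 equal stretches from its 5′ end, densities were 30.7, 41.5, 43.8, 40.9 and 33.6 per Mb. The outer stretches hold little deep sequence (9.69% and 9.50%), all of it from longer genes, so a position along the gene and the length of the gene cannot be told apart here. Median percentiles of fold differed little, from 55.3 to 56.9. The median distance of a deep region from the 5′ end was 151 kb (quartiles 87.5 and 289), and the longest was 2146 kb.

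With distance from the nearest coding gene end, density went down and strength did not. At 50 to 100 kb there were 48.7 regions per Mb, at 100 to 200 kb 38.8, at 200 to 400 kb 27.8, and beyond 400 kb 16.8. Median folds in R1 over the same bands were 5.71, 5.71, 5.93 and 6.27, and in R2 5.46, 5.46, 5.62 and 5.84. The share at or above both medians was 52.6%, 53.0%, 54.5% and 57.4%. Farther bands draw on longer genes only, so distance and the length of the gene cannot be told apart here. The last band held 627 regions, all in very long genes. The 3 farthest regions, looked up after the values were seen, lay in CNTNAP2 and DLG2, both genes of neuronal junctions. One of CNTNAP2 was 1080297 bp from any coding gene end, with folds of 2.46 and 2.73 from 21 and 23 fragments. Another of CNTNAP2 was 1019858 bp away, with folds of 10.75 and 10.23 from 95 and 89 fragments.

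**Figure D5:**
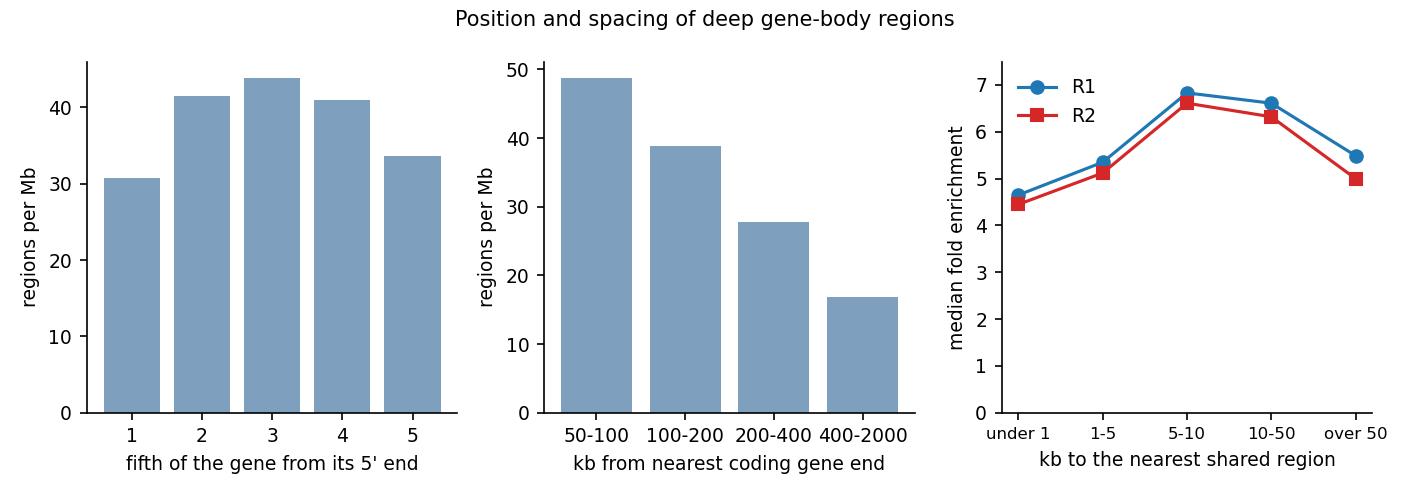
Deep gene-body regions per Mb in 5 equal stretches of the gene from its 5′ end (left) and by distance from the nearest coding gene end in kb (middle), and the median fold enrichment in R1 (blue circles) and R2 (red squares) by distance to the nearest other shared region in kb (right). Density falls from 48.7 to 16.8 per Mb with distance from gene ends, and fold is highest at 5 to 10 kb from the next region (6.83 in R1, 6.61 in R2).

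The spacing of deep regions was like that of shared regions in general. The median gap to the nearest other shared region was 4995 bp (quartiles 2143 and 10285), against 4842 bp over all shared regions. Joining deep regions of which neighbours lay at most 10000 bp apart gave 9238 runs, of which 5168 held 1 region, while the 675 runs of at least 5 held 25.2% of all deep regions. The longest run had 27 regions in 159 kb of MYLK, the gene of myosin light chain kinase (chromosome 3, 123660487 to 123819331), with median folds of 4.90 in R1 and 4.64 in R2. KCNMA1 had a run of 25 in 128 kb, ABLIM1 of 22 in 101 kb, WWTR1 of 19 in 74.1 kb and PALM2AKAP2, a gene of an anchor for protein kinase A, of 19 in 89.1 kb. None of these 5 runs held a listed coding start, which is rare in deep regions in general (1.85%).

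Regions very close to another had low folds over a high local background, both among deep regions and among all shared regions. Deep regions within 1 kb of another had median folds of 4.65 and 4.45, with 85 and 79 fragments over a background of 16.5 and 16.1. All shared regions in that band had 4.29 and 4.17, over 21.4 and 20.8. The 7177 deep regions with a gap of 1 to 5 kb, the most frequent kind, had folds of 5.35 and 5.12 over 13.3 and 13.0. Those with a gap of 5 to 10 kb had folds of 6.83 and 6.61, with fewer fragments, 69 and 65, over a background of 8.09 and 7.94. The 417 regions more than 50 kb from any other had folds of 5.49 and 5.0 and 48 and 43 fragments. In the MYLK run the medians were 144 and 145 fragments over 24.7 and 23.3, about as many fragments per summit as in regions with a listed noncoding start (142 and 129). Fold and fragments therefore order these regions differently, and how far neighbouring regions raise the background was not tested.

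Across genes, fragments went up with density and folds had no steady order. Among genes with at least 0.2 Mb of deep sequence and a deep region, the 158 genes with the lowest densities (0.58 to 18.3 per Mb) had median folds of 5.82 and 5.46, and the 158 with the highest (63.3 to 161 per Mb) 5.62 and 5.35, while the groups between them had 6.16 and 5.80, and 6.05 and 5.80. Fragments were 56 and 52 in the lowest group and 80 and 75 in the highest, with backgrounds of 7.93 and 7.79 against 12.3 and 12.1. The values 7.93 and 7.79 were also the medians in the next group by density and in deep regions more than 10 kb from another. They recurred exactly in single regions, such as that at the CLASP2 start. They may thus be a common lowest value rather than a local one, which was not tested. Median widths were 677 and 815 bp. Genes of the densest group had shorter deep stretches, with a median of 293 kb against 406 kb, and more of them had an open end, 88.6% against 67.7%.

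The strongest deep region by mean percentile lay in ARHGAP24, a gene of a GTPase-activating protein for Rac (chromosome 4, 85796535 to 85797388). It was 854 bp wide, and its fold was 20.70 in R1 and 20.01 in R2, from 404 and 397 fragments, and its nearest listed start was 30.5 kb away. Next came regions in DYNC2H1, a gene of the motor of cilia (18.29 and 16.64), VWA8 (17.79 and 16.82), FOCAD, which encodes a focal adhesion protein (18.08 and 16.49), and PPP1R9A, of an actin-binding phosphatase regulator (16.74 and 17.34). CAMKMT, TMPRSS15, SYT1, LRP1B and ATF6 followed, with folds between 15.97 and 17.74. Like 96.6% of all deep regions, these 10 lay more than 1000 bp from every listed start. The nearest starts were 8.04 to 465 kb away. The hosts of these 10 regions had densities from 22.8 to 71.4 per Mb, on both sides of the 39.2 per Mb over all eligible genes.

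The weakest lay in RBPJ, the gene of the DNA-binding factor of Notch signalling, with folds of 1.44 and 1.51. It was not short of fragments, with 118 and 120 over a background of 81.7 and 79.3, and it lay 0.241 kb from a listed start and 413 bp from the next region. TACC1 (1.54 and 1.59) and GCNT1 (1.503 and 1.683) came next. The widest region, 3942 bp in KLF12, a repressor gene, held a listed coding start and joined 2 peaks of R1 with 1 of R2. Those of FRMD4A (3636 bp), ADGRL2 (3445 bp) and GSE1 (3321 bp) also held a listed coding start, and that of RAI1 (3773 bp) did not.

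Around the distance limit, the regions just inside lay in TTLL5 (50001 bp from the nearest coding gene end, folds 7.52 and 7.83), FHAD1 (50003 bp, 7.79 and 7.03) and SYT2 (50009 bp, 3.95 and 4.90). Those just outside lay in PFKFB3 (50000 bp, 8.52 and 6.28), ACTN1 (49999 bp, 5.11 and 5.18) and ARID5B (49995 bp, 2.92 and 2.84).

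Of the deep regions, 772 (4.16%) lay within 1000 bp of an end of a noncoding gene or pseudogene, and 1353 (7.29%) wholly inside one. The same shares over all shared regions were not computed, so these say nothing particular to deep regions. With the ends of every gene, noncoding ones included, counted in the 50 kb rule, 7614 of the 18556 regions remained. Over chromosomes, density ran from 26.8 per Mb on chromosome 20 to 46.7 per Mb on chromosome 19, which has only 1.74 Mb of deep sequence.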

How the data were processed

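ATAC-seq peaks of wild-type hTERT-RPE1 cells were analysed from 1 merged peak list of each set of 3 libraries, R1 and R2. The submitters' processing notes name the build hg38. Which aligner, peak caller and Tn5 shift were used is not given in the sources used here. For each peak the authors deposited a score, a fold enrichment (a ratio), its p-value and its q-value, both as −log10, and a summit offset. No header names these columns, so units were read from the values and from the layout of the format. Values served only to describe or rank peaks within a list. Depth per library is not given. Fragments over the summit and the background were inferred from fold and −log10 p as a Poisson chance, and whole fragments matched the deposited −log10 p within 0.001 for 100.0% of the peaks solved in each list.

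Overlapping R1 and R2 peaks (at least 1 bp) were joined, and regions with both were placed against protein-coding intervals of RefSeq (GRCh38.p14). The members and gene lists were chosen with earlier results of these data known. Genes were named by a fixed rule: the 15 with the most regions, the 10 densest, the 10 longest empty ones, up to 5 per list, the 10 strongest, 3 weakest and 5 widest regions, 5 runs, and 3 regions on each side of the limit. Some items the rule takes are not reported here. No genome was used here, so the planned search of whole regions for GC content and motifs was not run. Windows of 300 bases around RefSeq starts took its place, a choice made after seeing the files. No exon annotation was used.

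Simulated data were used to test the scripts. Membership was wrong for 0 of 2349 regions, deep spans for 0 of 4000 positions, and fragments were recovered for 100.0% of 20000 peaks. Scripts ran on Python 3.11.15 with the packages scipy 1.17.1, pandas 2.3.3, matplotlib 3.10.9 and numpy 2.4.6. Alternatives changed the distance, the genes whose ends count, the peak threshold, the overlap, the list, the chromosomes and the gene-end window.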

Additional observations from a re-analysis of the deposited data

Results flagged for a closer look

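Chromosome X was left out of the description above, and 389 shared regions on it met the same position rule, a signal in data outside the main description that entered only the alternative with X added. They lay in 71 of 136 eligible genes of X, at 18.7 per Mb against 39.2 per Mb over autosomal genes, with median folds of 5.60 in R1 and 5.34 in R2. FRMPD4 held 31 of them, DMD, the dystrophin gene, 30 and NHS 23.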

How the results depend on the processing

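No paired analysis was possible because each set is 1 merged list and no result comes from a test. For the same reason no replicate was left out. Of 11 alternatives, 7 kept the number of deep regions (18556) within 1.5 times and 8 the number of genes (2236). A limit of 20 kb gave 33046 regions in 4850 genes, a share at or above both medians of 52.3%, a median width of 798 bp and a median gap of 4895 bp. A limit of 100 kb gave 9020 regions in 946 genes, 773 bp, a gap of 5240 bp and an open gene end in 82.8% of genes. With the ends of every gene of the table the values were 7614 regions in 1359 genes, 54.0%, 772 bp and 5374 bp. Peaks with at least the median fold, which also thins the gene-end peaks, left 9860 regions, 972 bp, open ends in 67.4% of genes and a gap of 10378 bp. An overlap of 50% of each peak gave a share of 55.3% and a gap of 5188 bp. Gene-end windows of 500 and 2000 bp gave open ends in 81.8% and 88.5% of genes. Regions over 1000 bp from every listed start, an alternative chosen after seeing the data, had a median width of 775 bp. Beyond what the construction of each alternative shows, the cause was not tested. The precision is limited by pooled lists of unknown library depth, and sites in 1 list only, mostly weak, are left out.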
